A study of Mus musculus with 8 samples.

Results

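A cassette exon is an internal exon that is either spliced into a transcript or skipped between its neighbours. The authors' deposited table of splicing differences listed 73 cassette events among 501 events of all kinds, in 292 of 1203 junction entries. The event type is written into the name of each event, and each exon was taken as the bases between its upstream and downstream inclusion junctions. Repeats of an exon were counted once, which left 71 distinct exons in 63 of the 236 genes of the table. Of these genes 7 held 2 or more, among them Tead1, Atp6v1c2, Epb41, Myo9a, Esrp1 and Tut7 with 2 each. The 2 Myo9a exons (213 and 216 bases) overlapped and are alternative boundaries of the same stretch.

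The 8 libraries, 4 control and 4 experimental, were of epidermal RNA taken from the back skin of mouse pups (postnatal day 5). Control animals were Esrp1flox/flox; Esrp2-/-, and experimental animals were K5rTA tetOCre Esrp1flox/flox; Esrp2-/-. Dams of both groups ate high dox chow from embryonic day 17 on. Neither group thus had functional Esrp2 alleles, and the groups differed in Cre-driven loss of floxed Esrp1 and in carrying the 2 transgenes. Cre depended on a keratin 5 driver, a promoter of basal keratinocytes, and the sources used here do not give the extent of recombination. The labels call the libraries biological replicates and do not name litters.

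ESRP1 and ESRP2 are RNA-binding proteins of epithelial cells that bind GU-rich stretches of pre-mRNA and steer alternative splicing. Binding within or upstream of an exon is known mostly to favour skipping, and binding downstream of it mostly to favour inclusion. Many known ESRP-regulated exons lie in genes for cell adhesion, polarity and the cytoskeleton, where the epithelial and mesenchymal forms of a protein differ by a short stretch of residues.

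Of the 5 exons with the largest rise of inclusion in experimental epidermis, 3 are printed first, to show the letters that the motif counts below rest on. Sequences run 5′ to 3′ on the transcribed strand, from the transcripts of GENCODE M21 on GRCm38, and capitals mark GGTG, the shortest of 3 GU-rich strings searched.
Lsm14b, chr2:180031794-180031871, plus strand: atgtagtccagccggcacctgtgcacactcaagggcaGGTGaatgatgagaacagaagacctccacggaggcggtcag
Arhgef11, chr3:87734424-87734552, plus strand: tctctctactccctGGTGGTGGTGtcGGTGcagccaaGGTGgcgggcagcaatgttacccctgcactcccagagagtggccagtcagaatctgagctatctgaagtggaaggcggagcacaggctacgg
Tead1, chr7:112842040-112842102, plus strand: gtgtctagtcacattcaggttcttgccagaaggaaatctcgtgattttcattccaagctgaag
The Lsm14b and Arhgef11 exons held GGTG, and the Tead1 exon did not. Arhgef11 held 5 overlapping or separate copies, more than any other rising exon.

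The 5 exons with the largest fall follow, for comparison with the rises.
Arhgef10l, chr4:140568756-140568770, minus strand: gccctccaaccacag
Slk, chr19:47627648-47627740, plus strand: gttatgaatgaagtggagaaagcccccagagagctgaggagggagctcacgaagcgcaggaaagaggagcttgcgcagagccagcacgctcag
Atp6v1c2, chr12:17288996-17289133, minus strand: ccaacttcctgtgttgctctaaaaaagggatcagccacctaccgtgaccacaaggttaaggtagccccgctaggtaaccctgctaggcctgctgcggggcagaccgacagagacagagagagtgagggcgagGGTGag
Grhl1, chr12:24582885-24582961, plus strand: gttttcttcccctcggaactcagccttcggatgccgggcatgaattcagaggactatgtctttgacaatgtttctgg
Mgll, chr6:88813880-88813963, plus strand: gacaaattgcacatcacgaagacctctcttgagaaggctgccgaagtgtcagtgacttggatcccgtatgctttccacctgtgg
Of these, the Atp6v1c2 exon alone held GGTG, in 1 copy at its downstream end. The Arhgef10l exon is 15 bases long and adds 5 codons.

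Another 3 falling exons are printed for what they show about kinds of exon: the first exon of a pair in Tead1 whose neighbour rose, the epithelial exon of Enah, and the shortest exon of the table, in Myo18a.
Tead1, chr7:112841888-112841950, plus strand: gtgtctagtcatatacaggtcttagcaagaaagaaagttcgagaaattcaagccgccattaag
Enah, chr1:181911597-181911659, minus strand: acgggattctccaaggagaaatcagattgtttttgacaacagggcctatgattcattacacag
Myo18a, chr11:77822663-77822674, plus strand: aagctgctgaag
None of these 3 held GGTG. The Tead1 exon above matched its rising neighbour at 44 of 63 bases (69.8%).

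The labelled tissue was checked against markers. All 13 keratinocyte markers were found, with a summed level of 66198 to 80631 TPM in control and 77680 to 113405 TPM in experimental libraries. The 3 endothelial and 3 adipocyte markers were at 0 in every library, and 6 fibroblast markers summed to 0 to 29.6 TPM in control and 0 to 3.29 TPM in experimental libraries. Markers of Langerhans cells and macrophages summed to 145 to 588 TPM in control and 209 to 410 TPM in experimental libraries, and erythroid markers to 106 to 5847 and 139 to 2597 TPM. Hair markers (4 of 5 found) spanned 3246 to 21864 TPM in control, with control library 4 highest, and 791 to 5988 TPM in experimental libraries, and the part of these cells in the exon changes was not tested. Mitochondrially encoded genes took 18.2% and 17.5% of TPM in experimental libraries 2 and 4 and 10.6% to 12.6% in the other 6 libraries. PSI could not be given without these libraries, since 1 value per group was deposited.

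Inclusion fell for 45 exons and rose for 22, by at least 0.15 in PSI, and 4 changed by less. PSI, percent spliced in, is the fraction, from 0 to 1, of a splice site's reads that span a given junction. An exon's value is the mean over its 2 inclusion junctions, as read from the authors' deposited table. That table holds 1 PSI per group, combined over libraries by MAJIQ, so no replicate spread could be given and direction is a description with no test. Entries of the table had mostly passed the same size of change whatever the event: 44.5% of 1103 junction entries with a value rose and 48.7% fell by at least 0.15. The number of changed exons is therefore set by what was deposited, and so, in part, is the size of the changes. A posterior probability of at least 0.95 for a change of at least 0.15, the authors' own value, was reached by an inclusion junction of 43 of the 45 falling and all 22 rising exons, and by every inclusion junction of 36 falling and 13 rising ones. The share of single entries that reached it was 74.7%, a measure per entry and not per exon.

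Falling exons went from a median PSI of 0.591 in control to 0.164 in experimental epidermis, and rising exons from 0.274 to 0.754. The median change was -0.33 for falls and 0.35 for rises. In 37 exons the mean PSI crossed 0.5, so that a PSI of 0.5 or more in 1 group was under 0.5 in the other (25 falls and 12 rises). A PSI under 0.5 need not make skipping the majority form, since a splice site can have further junctions. The exon of Inf2 is counted here. In experimental epidermis its inclusion junctions (0.465 and 0.282) still exceeded its skipping junctions (0.173 and 0.24). Of the falling exons, 17 were left with a PSI under 0.1. Changes of at least 0.5 were seen in 7 falling and 5 rising exons. Just inside the threshold were Mettl17 (-0.17) and Lsr (0.21), and just outside it Tmem164 (-0.09) and Etl4 (0.03). In 3 of the 4 exons under the threshold the inclusion junctions moved in opposite directions, so a small mean does not stand for small changes. In Etl4 the upstream junction went from 0.882 to 0.685 and the downstream one from 0.044 to 0.3. In the 64-base Tut7 exon they went from 0.108 to 0.282 and from 0.576 to 0.416, and in the 110-base Esrp1 exon from 0.105 to 0.226 and from 0.556 to 0.281. The upstream values of these exons equal those of the junctions that skip the 65-base Tut7 and the 151-base Esrp1 exon. The plot of PSI by exon shows both values side by side, ordered from the largest fall to the largest rise.

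**Figure D1:**
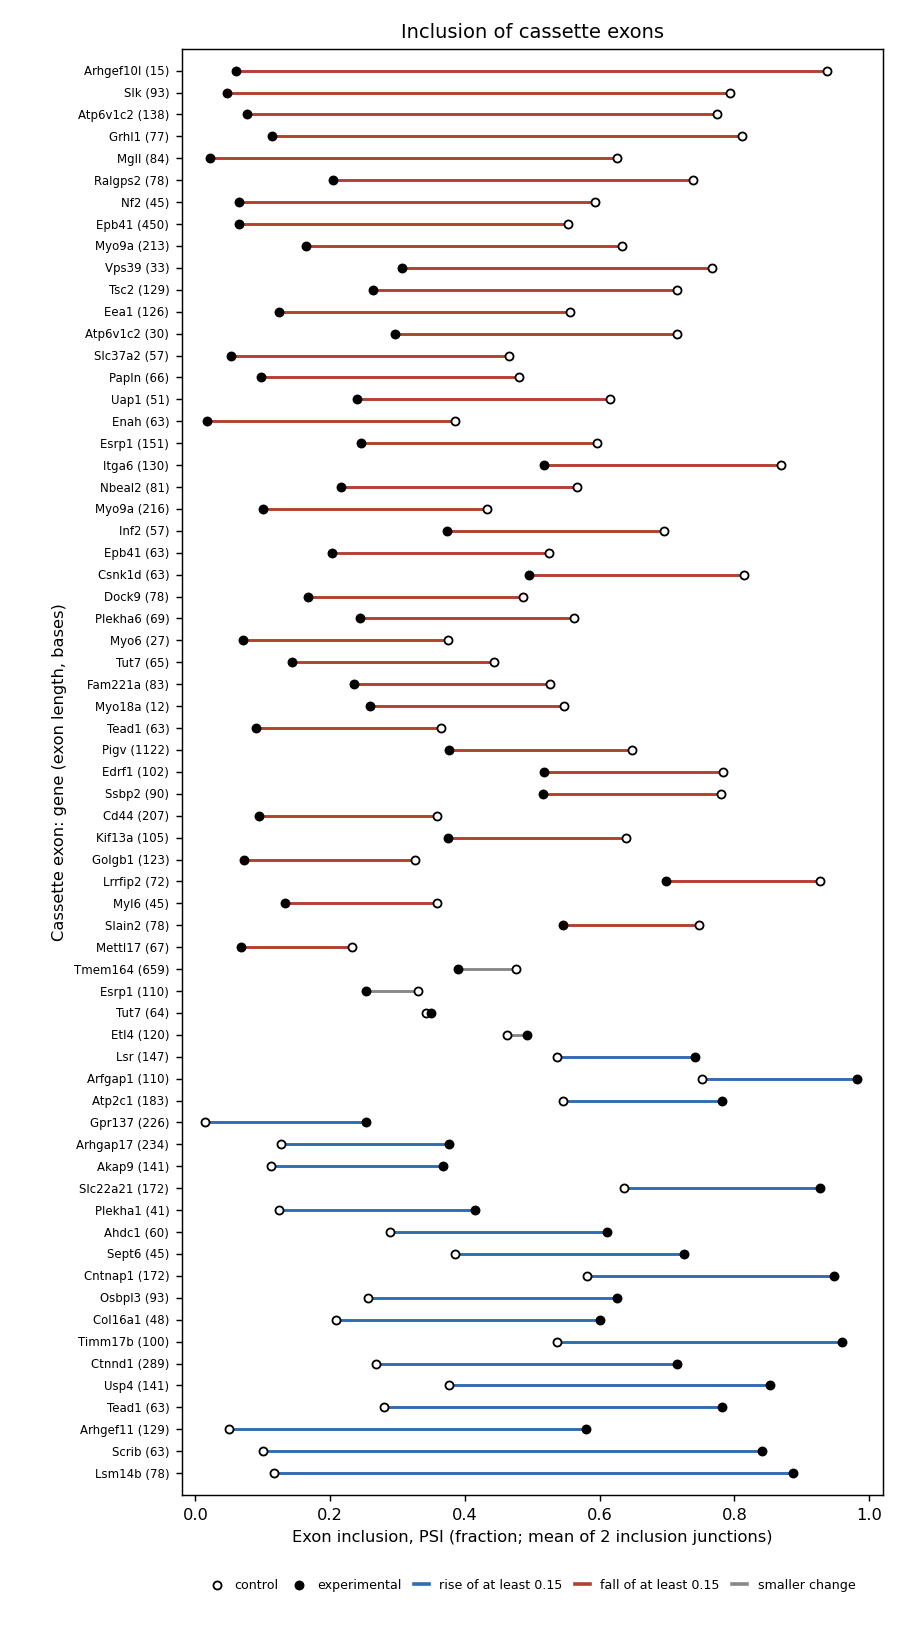
Inclusion of 65 of the 71 cassette exons as PSI (fraction of reads, horizontal axis) in control (open circles) and experimental (filled circles) epidermis, 1 value per group. Exons are ordered by change, with the length in bases after the gene symbol. Lines are red for 41 falls of at least 0.15, blue for 20 rises and grey for 4 smaller changes, and 14 of the falling exons shown end below 0.1.

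Among the largest falls were regulators of small GTPases and of the cytoskeleton. The 15-base exon of Arhgef10l, which encodes a guanine nucleotide exchange factor, went from a PSI of 0.938 to 0.0595. The 93-base exon of Slk, a kinase that acts on the cortical cytoskeleton, went from 0.794 to 0.0465. Both exons were included in most control transcripts and nearly absent from experimental ones. The 78-base exon of Ralgps2 (chr1:156821387-156821464), a Ral exchange factor, went from 0.739 to 0.205. A 450-base exon of Epb41 (chr4:131937015-131937464), the spectrin- and actin-binding protein 4.1, went from 0.553 to 0.0645, and its 63-base exon from 0.524 to 0.203. So the 2 Epb41 exons fell together. In Myo9a, a myosin with a GTPase-activating domain, the 213-base form (chr9:59875202-59875414) went from 0.633 to 0.164.

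Metabolic, transport and transcription genes were among the largest falls too. Atp6v1c2 encodes subunit C of the proton-pumping V-ATPase, and its 138-base exon went from 0.774 to 0.076. Its 30-base exon, some distance upstream, fell as well, from 0.714 to 0.296. Grhl1 is a grainyhead-like transcription factor of barrier genes. Its 77-base exon went from 0.812 to 0.114, and the junction that skips it is absent from the annotation. Mgll, the monoacylglycerol lipase, included its 84-base exon at 0.626 in control and 0.021 in experimental epidermis. The 33-base exon of Vps39 (chr2:120346857-120346889), a subunit of the lysosomal tethering complex HOPS, went from 0.766 to 0.307. The 129-base exon of Tsc2 (chr17:24606224-24606352), an inhibitor of mTORC1 signalling, went from 0.715 to 0.263. The 45-base exon of Nf2 (chr11:4780578-4780622), which encodes the tumour suppressor merlin, went from 0.594 to 0.065.

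The largest rises were those of Lsm14b and Scrib. Lsm14b, which encodes an LSM-family protein of messenger ribonucleoprotein particles, included its 78-base exon at 0.117 in control and 0.887 in experimental epidermis. Scrib, a scaffold of basolateral polarity, went from 0.0995 to 0.841 at its 63-base exon. Both exons were skipped in most control transcripts and included in most experimental ones. Arhgef11, an exchange factor with a PDZ domain, went from 0.050 to 0.579 at its 129-base exon, and Usp4, a deubiquitinase, from 0.376 to 0.852 at its 141-base exon (chr9:108365830-108365970). Ctnnd1 encodes p120-catenin, which holds cadherins at the membrane, and its 289-base exon (chr2:84624270-84624558) went from 0.269 to 0.714. The long form of p120-catenin, known from mesenchymal cells, begins at an upstream start codon, and this exon holds an annotated start. Timm17b, a part of the mitochondrial inner-membrane import channel, rose from 0.536 to 0.959 at its 100-base exon (chrX:7900961-7901060). The 48-base exon of Col16a1, collagen XVI (chr4:130073069-130073116), rose from 0.209 to 0.601. The exon of Osbpl3, an oxysterol-binding-related lipid transfer protein (chr6:50346011-50346103), rose from 0.256 to 0.625. That of Cntnap1, a contactin-associated membrane protein (chr11:101181638-101181809), rose from 0.582 to 0.948. That of Sept6, which encodes a septin (chrX:36920369-36920413), rose from 0.386 to 0.725. Sept6 was listed at 0, which stands for 1 TPM or less, in every experimental library, so this PSI comes from a gene at the floor.

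The Tead1 exons gave a switch within 1 gene. TEAD1 is a DNA-binding partner of the Hippo pathway coactivator YAP. The exons printed above are exons 4 and 5 of an annotated transcript of 14 exons, each of 63 bases (21 codons), with 89 bases between them. Exon 4 went from a PSI of 0.365 to 0.0903, and exon 5 from 0.280 to 0.781, as means over the inclusion junctions of 2 listed events each. By these means neither exon reached 0.5 in control epidermis, and exon 5 did in experimental epidermis. At the splice site upstream of the pair, the junction to exon 4 went from 0.521 to 0.169, and that to exon 5 from 0.279 to 0.744. By that junction alone exon 4 was the majority form in control and exon 5 in experimental epidermis.

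Of 77 genes in a list of ESRP splicing targets known from the literature, 26 had a cassette exon in the table, with 30 exons. Of these exons 20 fell and 10 rose, with a median change of -0.32, against -0.27 over all 71. Enah encodes Mena, an actin regulator, and its 63-base exon, known as an epithelial insert, went from 0.385 to 0.017. Cd44 encodes the hyaluronan receptor, and its 207-base exon (chr2:102831330-102831536) went from 0.358 to 0.094. The 2 Cd44 inclusion junctions differed in sign, the upstream one going from 0 to 0.041 and the downstream one from 0.716 to 0.147. Both skipping junctions rose, from 0.084 to 0.838 and from 0.068 to 0.627. Itga6, the integrin of hemidesmosomes, went from 0.869 to 0.518 at a 130-base exon (chr2:71853534-71853663) that holds a stop codon. The A form of the integrin's cytoplasmic tail is known to come from inclusion of such an exon. Kif13a, a kinesin (0.639 to 0.376), Slain2, a microtubule plus-end protein (0.747 to 0.546), Lrrfip2 (0.927 to 0.698) and Uap1, an enzyme of UDP-sugar synthesis (0.615 to 0.240), fell. Slc37a2, a sugar-phosphate exchanger, fell from 0.466 to 0.053, and Inf2, a formin that nucleates actin, from 0.695 to 0.374. Among the rises were Lsr, a receptor of tricellular junctions (0.537 to 0.742), Arhgap17, a GTPase-activating protein (0.127 to 0.377), and Plekha1, a phosphoinositide-binding adaptor (0.125 to 0.415). This list and the role lists below were chosen with earlier results of these data known, so the counts are no independent evidence.

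The adhesion, polarity and cytoskeleton list of 101 genes held 18 genes with a cassette exon, and 15 of their 22 exons fell and 7 rose (median change -0.31), beside 45 falls and 22 rises with a median of -0.27 over all 71 exons. Membrane traffic and small GTPase regulators gave 5 exons, of which Arfgap1, Osbpl3 and Plekha1 rose and Ralgps2 and Vps39 fell, of 68 genes. Signalling receptors, kinases and phosphatases gave 2 of 56 genes, Csnk1d and Slk, and both exons fell. The transcription and chromatin list, which also counts the deubiquitinase Usp4, gave 4 exons in 3 of 60 genes. Usp4 and Tead1 exon 5 rose, and Grhl1 and Tead1 exon 4 fell. Of 58 RNA-binding and splicing genes Esrp1 alone was among them. Its 151-base exon went from 0.597 to 0.245, and its 110-base exon from 0.331 to 0.254. The Esrp1 locus carries the floxed alleles in both groups, so its own exons bear on a gene that the study altered. No list held 31 of the exons, in 30 genes, of which 18 fell and 10 rose.

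Cassette exons were short and mostly kept the reading frame. The median length was 84 bases (78 for falls and 119.5 for rises), against 124 for 175642 annotated internal exons of protein-coding transcripts and 106 for the 10322 of those with an annotated skipping junction. Of the 71 exons 40 were shorter than 100 bases, a share of which annotated internal exons reached 32.6% and annotated skipped exons 45.7%. The 4 exons of 30 bases or fewer all fell, as did 45 of all 71 exons. They were Myo18a (12 bases, 0.547 to 0.259), Arhgef10l (15), Myo6 (27, 0.375 to 0.0705) and Atp6v1c2 (30). Exons this short were 1.22% of annotated internal exons and 5.37% of annotated skipped ones. The posterior probability was as low as 0.871 at an inclusion junction of Myo18a and 0.558 at an inclusion junction of Myo6. Myo18a and Myo6 encode unconventional myosins. The longest exons were those of Pigv (1122 bases), a mannosyltransferase of GPI anchors, Tmem164 (659) and Epb41 (450).

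Lengths that are multiples of 3 made up 54 of 71 exons, 76.1% (95% Wilson interval 65.0% to 84.5%, for counting error only). The 71 include 2 pairs of overlapping exons, which this interval and that for coding overlap below treat as separate. The share of multiples of 3 was 40.4% over annotated internal exons and 51.0% over annotated skipped ones. It was 36.8% over internal exons within 5 bases of the members' lengths, which is no baseline for this share. A window centred on a multiple of 3 holds fewer such lengths than one centred elsewhere, and most members' lengths are multiples of 3. By direction it was 38 of 45 falls (84.4%) and 15 of 22 rises (68.2%). The difference between the directions was not tested. The plot of length against change places the other lengths in both directions.

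**Figure D2:**
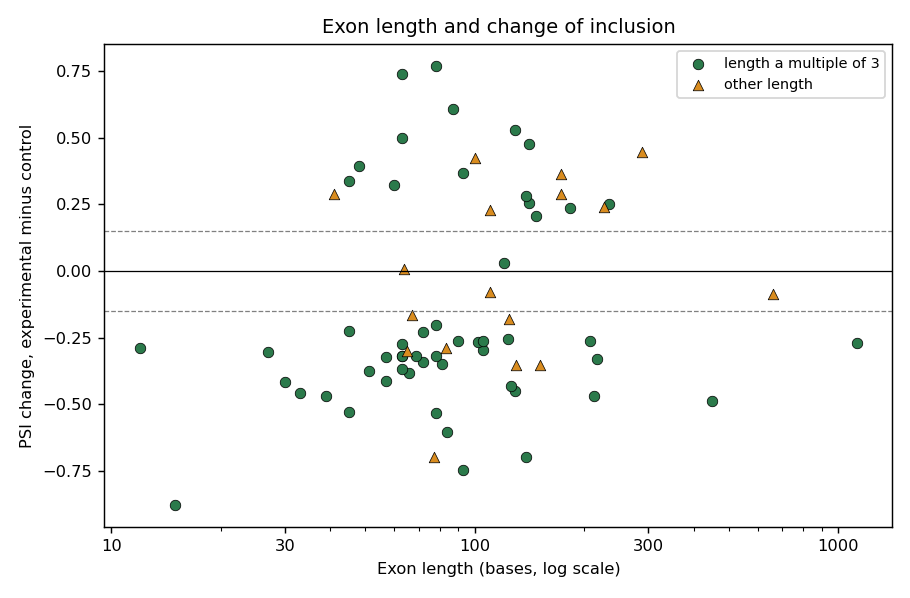
Change of PSI (experimental minus control, vertical axis) against exon length in bases (log scale) for the 71 cassette exons. Green circles are lengths that are a multiple of 3 (54 exons) and orange triangles other lengths (17 exons), with dashed lines at changes of 0.15 and -0.15. The 4 exons of 30 bases or fewer lie below the lower line.

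Annotated coding sequence overlapped 67 of the 71 exons (94.4%, 95% Wilson interval 86.4% to 97.8%), against 97.7% of annotated internal exons and 88.2% of annotated skipped ones. Coding throughout were 51 exons, 32 falls, 18 rises and 1 smaller change. Each of these 51 equals an annotated coding segment, so by definition none could hold a stop codon in its annotated frame. Of them 42 were multiples of 3, so that skipping removes whole codons' worth of bases. The other 9 shift the frame when skipped: the 77-base Grhl1, 151-base Esrp1 and 83-base Fam221a exons fell, and the exons of Arfgap1 (110 bases), Gpr137 (226), Slc22a21 (172), Plekha1 (41), Cntnap1 (172) and Timm17b (100) rose. Frame-shifting coding exons were thus 3 of 32 coding falls and 6 of 18 coding rises. Arfgap1 controls coat release at the Golgi, and its exon went from 0.753 to 0.982, and that of Gpr137, a lysosomal membrane protein, from 0.0135 to 0.254. In Slc22a21, a carnitine transporter gene, it went from 0.636 to 0.927.

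Stop codons lay in 11 exons, and each of the 11 was the penultimate exon of an annotated transcript, so skipping exchanges the C terminus. Of these 8 fell, among them those of Nf2, Slc37a2, Itga6, Inf2, Csnk1d and Myl6, and Sept6 rose. Csnk1d, casein kinase 1 delta, went from 0.815 to 0.495. Myl6, a non-muscle myosin light chain, went from 0.358 to 0.133. Start codons lay in the exons of Ctnnd1 and of Atp2c1, the Golgi calcium pump (0.545 to 0.782), which both rose, and in that of Tmem164. Exons without an annotated coding base were those of Eea1, an endosome tether (0.557 to 0.124), Tut7, an RNA uridylyltransferase (65 bases, 0.444 to 0.144), Mettl17 (0.233 to 0.067) and Ahdc1 (0.289 to 0.612). The plot of coding place gives these counts by direction.

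**Figure D3:**
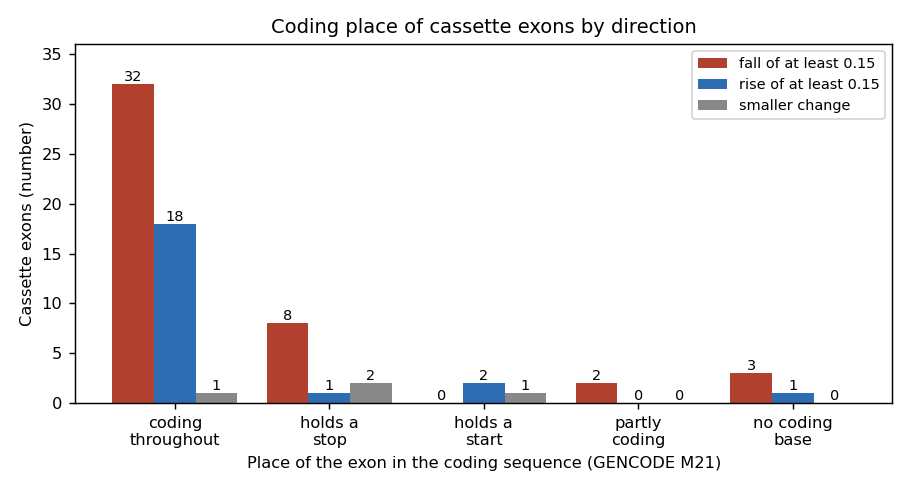
Number of cassette exons (vertical axis) by place in the coding sequence annotated in GENCODE M21 and by direction: red for falls, blue for rises, grey for smaller changes. Coding throughout holds 32 falls and 18 rises, and 8 of 11 exons with a stop codon fell.

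Other event types were listed for 20 of the 63 genes, most often alternative introns (11) and multi-exon spanning events (10).

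For 58 exons both the inclusion and the skipping form were annotated. The skipping junction was absent from the annotation for 11 exons: 8 of 22 rises and 3 of 45 falls. Among the rises were the exons of Akap9, Slc22a21, Ahdc1, Sept6, Cntnap1, Timm17b and Arhgef11, and among the falls that of Grhl1. Akap9, a scaffold for kinases at the centrosome and Golgi, went from 0.113 to 0.368. Apart from Ahdc1, whose exon was not annotated either, the form that gained in these rises was by definition the annotated one.

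Motif letters inside the exon differed by direction. The letters GGTGG, searched on the transcribed strand, occurred in 7 of 21 rising exons with an annotated sequence (33.3%, 95% Wilson interval 17.2% to 54.6%) and in 4 of 42 falling ones (9.52%, 3.77% to 22.1%). Internal exons within 5 bases of the same lengths held it in 16.1% for the rises and 12.3% for the falls. The shorter GGTG, which lies within every GGTGG, occurred in 16 of 21 rises (76.2%, like-length share 39.0%) and 11 of 42 falls (26.2%, like-length share 29.8%). The longer TGGTGG, which holds both, occurred in 3 rises (14.3%, like-length 7.80%) and in 0 of 42 falls (like-length 5.94%). On the opposite strand CACC, the complement of GGTG, was in 10 of 21 rises (47.6%, like-length 42.1%) and 19 of 42 falls (45.2%, like-length 31.6%). CCACC, the complement of GGTGG, was in 4 rises (19.0%, like-length 16.97%) and 10 falls (23.8%, like-length 13.2%). The split between directions was thus seen on the transcribed strand and not on the other, and it was not tested. The plot of motif shares sets each share beside that of internal exons of like length. A match describes letters and is no binding site, and intron sequence beside the exons was not analysed here.

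**Figure D4:**
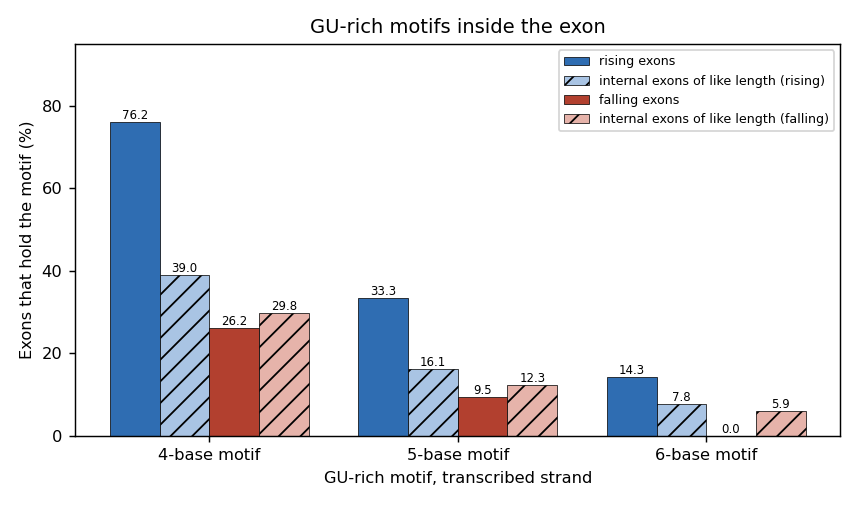
Share of exons (percent, vertical axis) that hold a GU-rich motif of 4, 5 or 6 bases on the transcribed strand, for 21 rising exons (blue) and 42 falling exons (red), beside annotated internal exons of like length (hatched). The 4-base motif stands at 76.2% of rises and 26.2% of falls.

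Copies of GGTG were most frequent, among the rises, in the exons of Arhgef11 (5), Timm17b and Arhgap17 (4 each), and Gpr137 and Atp2c1 (3 each). Among the falls the highest numbers were those of the 2 longest exons, Pigv with 7 and Epb41 with 3. The 659-base exon of Tmem164, which changed by less than the threshold, held 10. Of the 5 largest falls 1 held GGTG.

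Most genes with a cassette exon did not pass the test of gene level. Of 62 tested genes none rose and 4 fell in limma (adjusted p under 0.05; 6.45%, against 2.46% of all 10682 genes, 1.54% lower and 0.917% higher), and 14 had an unadjusted p under 0.05. The median log2 change was -0.21, beside -0.18 over all genes tested, and 43 of 62 group means lay within 1.5-fold. No share over all genes is given for the unadjusted and the 1.5-fold counts, so they describe these genes alone. Mean levels ran from 0.379 TPM for Sept6, which was below the filter of 1 TPM, to 1030 TPM for Myl6, with a median of 13.5 TPM. Sept6 was listed at 0 in 6 of 8 libraries, and read 1.65 and 1.39 TPM in control libraries 1 and 2. TPM is a length-normalized share of transcripts, and entries at or under 1 TPM are listed at 0. In bulk epidermis fewer cells of a type and less RNA per cell cannot be told apart.

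Grhl1 read 157, 152, 170 and 231 TPM in control and 62.4, 41.7, 68.1 and 73.2 TPM in experimental libraries. Every experimental library was below every control for this gene (ENSMUSG00000020656.16), and the level was 2.90-fold lower (log2 change -1.53, SE 0.22, limma adjusted p = 0.0077). Its 77-base exon was also the fourth largest fall of inclusion. Inf2 stood at 19.2, 23.0, 22.7 and 27.5 TPM in control and 8.83, 5.83, 9.01 and 9.90 TPM in experimental libraries, again without overlap (log2 change -1.37, SE 0.20, limma adjusted p = 0.0077). Esrp1 stood at 135, 131, 133 and 162 TPM in control and 65.0, 49.8, 75.6 and 66.5 TPM in experimental libraries (log2 change -1.13, SE 0.17, limma adjusted p = 0.0112). The targeted gene was thus lower in all 4 experimental libraries and stood at 49.8 TPM or more in each. Tmem164 stood at 23.9, 24.0, 13.4 and 16.3 TPM in control and 8.96, 6.30, 9.18 and 7.15 TPM in experimental libraries (log2 change -1.17, SE 0.22, limma adjusted p = 0.0257). It did not pass when control library 2 or any single experimental library was left out (adjusted p 0.0534 to 0.0857). Without experimental libraries 2 and 4, none of the 4 genes passed (limma adjusted p 0.0975 for Grhl1, 0.0840 for Inf2, 0.154 for Esrp1 and 0.328 for Tmem164). Their log2 changes were then -1.41, -1.27, -0.99 and -0.98, and 15 of all 10765 genes tested passed (0.139%). Without control libraries 3 and 4, 10 of 62 genes with a cassette exon passed (16.1%), all lower, against 24.2% of all genes.

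Groups did not overlap for 10 of the 63 genes, 9 lower and 1 higher in experimental libraries (12.6% of all genes tested, 9.94% lower and 2.7% higher). The higher one was Lrrfip2, at 33.6, 34.1, 27.7 and 23.0 TPM in control and 46.8, 39.6, 53.4 and 48.1 TPM in experimental libraries. Its log2 change of 0.66 did not pass (limma adjusted p = 0.0917) and passed with median centring (adjusted p = 0.00409) and quantile normalization (adjusted p = 0.00657). Of genes with the largest exon changes, Lsm14b read 13.1, 10.4, 8.71 and 5.93 TPM in control and 5.60, 5.38, 5.96 and 5.47 TPM in experimental libraries, with overlapping groups (limma adjusted p = 0.174). Mgll read 133, 111, 43.0 and 17.8 TPM in control and 23.2, 33.1, 10.6 and 20.9 TPM in experimental libraries (limma adjusted p = 0.224). In both genes the lowest control library, control library 4, lay within the experimental range. Without it both passed, Lsm14b at a log2 change of -0.82 (limma adjusted p = 0.0306) and Mgll at -2.02 (limma adjusted p = 0.0234), in a fit where 5.39% of all genes passed. Atp6v1c2, whose 2 exons fell, read 155, 158, 188 and 195 TPM in control and 140, 148, 190 and 225 TPM in experimental libraries (log2 change -0.01, limma adjusted p = 0.992). Over 70 exons Pearson's r between the change of inclusion and the log2 change of the gene was 0.18, a description over exons that share genes and libraries. The plot of exon change against gene level shows log2 changes above and below 0 among falling and among rising exons. The authors' deposited table of 748 genes with lower expression held 6 of the 63 genes: Tmem164, Inf2, Grhl1, Esrp1, Nf2 and Lsm14b.

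**Figure D5:**
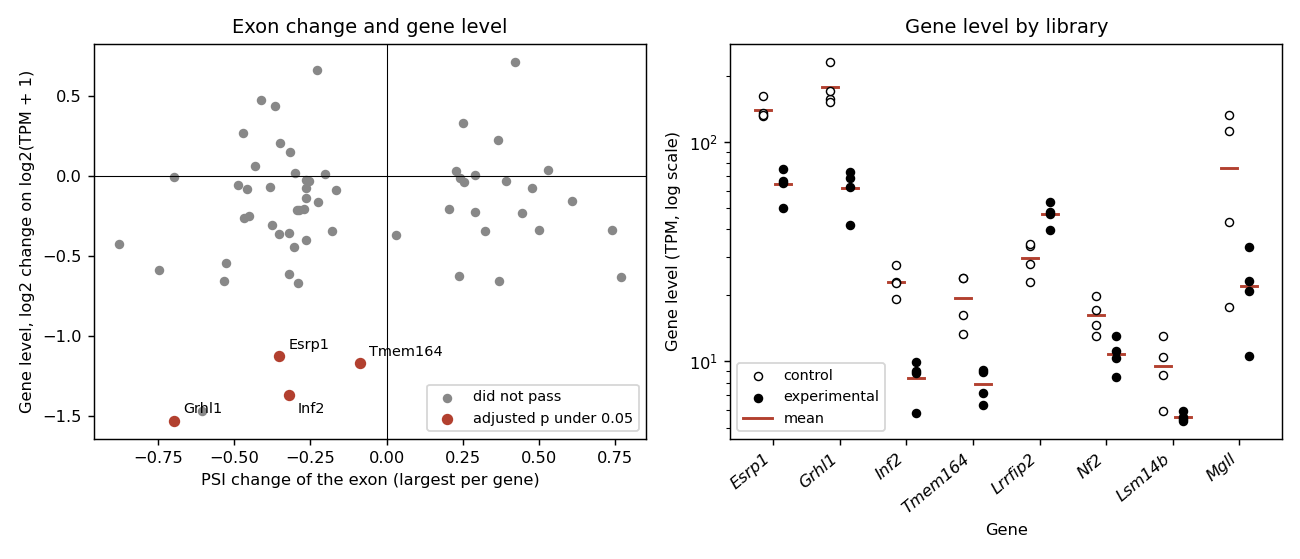
Left, log2 change of gene level on log2(TPM + 1) (vertical axis) against the largest PSI change of the gene's cassette exons, with the 4 genes that passed limma in red. Right, TPM per library (log scale) in 4 control (open) and 4 experimental (filled) libraries for 8 genes, with means as red lines. Grhl1, Inf2, Esrp1 and Tmem164 do not overlap between groups.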

How the data were processed

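Junction values are from the authors' deposited MAJIQ table: a PSI fraction per group, an expected difference and posterior probability as scores, per the file headers. Each group's libraries were combined by MAJIQ. The authors' deposited expression table gives log2 TPM per library, with 0 standing for 1 TPM or less. By its name, that table was not batch corrected. Its scale is inferred. Over 401 genes the deposited mean normalized count signal per kilobase, divided by 2 to the listed value, was 0.993 times as high in the lowest bin as in the highest, and 1.43 times when 1 was subtracted. The authors' deposited comparison of expression gives a log2 fold change and p-values, per the file headers. Salmon 0.14.0, STAR, SAMtools 1.9 and DESeq stand in the submitters' processing notes, without roles. Values above 1 TPM were found for 10401 to 11640 genes per library. TPM carries no depth, so depth is unknown.

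Exons were looked up in GENCODE M21 (GRCm38), and 67 of 71 had a sequence there. GGTGG was the string searched. Alternatives were the longer TGGTGG and the shorter GGTG, and the opposite strand. Intron windows, also planned, were not analysed here. Gene levels were turned back to TPM, set to at least 1 TPM, and tested as log2(TPM + 1) with limma 3.58.1 in R 4.3.3 (trend, two-sided, Benjamini-Hochberg over 10682 genes with mean TPM of at least 1). Fold changes on this scale understate low genes. The procedure was tested on simulated data. Python 3.11.15, pandas 2.3.3 and matplotlib 3.10.9 were used otherwise. Expression columns carry a group but no replicate number of the labels, so libraries are numbered 1 to 4 in table order.

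The cassette exons and the lists were chosen with earlier results of these data known. Exons were named where they were among the 12 largest rises or falls, in a literature target, among the 3 shortest or 3 longest, or in a gene past the level test. Those named for coding place, annotation, motif copies or role list were chosen after their values were seen, as were the capitals and the printed exons outside the 5 largest rises and falls. Some exons and sequences that these rules cover are counted but not reported here.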

Additional observations from a re-analysis of the deposited data

Results flagged for a closer look

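Levels per library were examined in 59 genes with a cassette exon, in 118 groups of 4 libraries, and 3 groups had a library far from the other 3. Esrp1 read 161.983 TPM in control library 4, against 131 to 135 TPM in the others, a gap of 0.856 of the group's range. Arhgef10l read 46.716 TPM in control library 4, against 31.4 to 33.4 TPM in the others, a gap of 0.871 of the range. Vps39 read 9.222 TPM in control library 1, against 8.07 to 8.19 TPM in the others, a gap of 0.897 of the range. Dixon's critical value for 4 libraries was passed in these 3, which chance alone does in about 1 in 20 groups. So 3 of 118 groups is no more than chance alone would give. Control library 4 had the highest summed level of hair markers, 21864 TPM, and its part in these values was not tested.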

How the results depend on the processing

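The 22 rises became 13 at a PSI change of at least 0.3 and were 17 to 23 under the other settings, and the 45 falls were 30 to 48. Over 4 other junction measures per exon, 265 of 284 values kept their direction and side of 0.15, 5 fell below it, 6 rose above it and 8 turned. Turned were Cd44 (0.041) and the 110-base Esrp1 exon (0.121) with the upstream inclusion junction only, Etl4 with that junction (-0.197) and with the skipping junctions (-0.184 and -0.191), and the 64-base Tut7 exon with the downstream inclusion junction (-0.16) and the skipping junctions (-0.136 and -0.158). In these exons the inclusion junctions differ in sign. For the 110-base Esrp1 and the 64-base Tut7 exon, the upstream inclusion values equal those of the junction that skips the 151-base Esrp1 and the 65-base Tut7 exon. The cause was not tested. The overlap with coding sequence was 73.2% when every base had to be coding and 71.8% for annotated coding exons with both boundaries equal. For rises GGTGG gave 33.3%, TGGTGG 14.3% and GGTG 76.2%; for falls GGTGG gave 9.52%, TGGTGG 0%, GGTG 26.2%, and the opposite strands of GGTGG and GGTG 23.8% and 45.2%. The 4 genes of lower level became 10 without control libraries 3 and 4 (10 lower) and 0 without experimental libraries 2 and 4 (0 lower), while of all genes 263 became 2595 and 15; without 1 library they were 3 to 6, and 85 to 578 of all genes. Genes of higher level were 1 with median centring, 1 with quantile normalization and 1 without control libraries 1 and 2, which was Lrrfip2 each time; centring moved the median of all genes from -0.18 to 0.03. Counting junctions by the deposited expected difference, simple modules alone, and the opposite strand of GGTG were chosen after seeing the data. Intron windows, of any planned width, were not run. No paired analysis was possible because the expression columns carry no replicate numbers and PSI has 1 value per group.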
